A study of Mus musculus with 12 samples.

Results

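The comparison covers epidermis separated from the skin of mice in which the gene Adam17 was disrupted and of wild type mice, and its members are the 6 epidermis samples of a series of 12. The samples were chosen by their labels: 3 are Epidermis Adam17 KO and 3 are Epidermis WT. All mice were on the C57BL/6 background and were 10 weeks old. The knockout mice carried Sox9-Cre and ADAM17fl/fl, so recombination followed the expression of Sox9, a gene of hair follicle progenitors, and their descendants. The labels give the control only as wild type, and do not say whether it carried Cre or floxed alleles. Poly(A) RNA was sequenced from each sample, and the abundance of each gene is an expected count, an estimate of its number of reads. Nothing in the labels says whether the 3 samples of a group came from separate mice, so each p-value measures the spread between these samples. Each library held between 12208522 and 15466317 counts, and 3 counts corresponded to 0.194 to 0.246 CPM (counts scaled so that libraries of different size can be compared).

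ADAM17 is a membrane protease that cuts the outer part off many cell surface proteins. Its substrates include ligands of the epidermal growth factor receptor (EGFR), which act on keratinocytes once released, and tumour necrosis factor. In the epidermis, basal keratinocytes attached to the basement membrane divide and then build a cornified envelope as they move outward. Wounded or inflamed epidermis makes another set of keratins, envelope proteins and antimicrobial proteins, many of which can be induced by interleukin-17.

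Markers of deeper tissue were low in the wild type epidermis. Skeletal muscle markers summed to 10.6 to 13.1 CPM of all counts there, against 14249 to 91991 in wild type whole skin, and fibroblast markers to 100 to 159 against 2966 to 4627. Keratins of the basal and spinous layers summed to 72252 to 79815 CPM in wild type epidermis and to 40066 to 53847 in wild type skin. No library repeated another: between replicates, the chi-square of the counts was 13.3 to 55.7 times its degrees of freedom.

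3 features set the knockout libraries apart before any comparison. Reads of 4 Y-linked genes numbered 0 in each wild type library and 1781, 213 and 679 in knockout 1, 2 and 3, while Xist reads numbered 1719, 3222 and 1939 in wild type and 0, 2511 and 2050 in knockout. Knockout 2 and 3 thus held both kinds of read, and sex and genotype cannot be told apart across the groups. Mitochondrial genes took 3.28%, 3.30% and 2.0% of counts in wild type and 10.5%, 9.43% and 6.23% in knockout. Knockout 2 also held 17 genes that reached at least 5 CPM and at least 10 times their level in every other epidermis library, against 0 such genes in each of the other 5. Among them, Bpifa2, a protein of saliva, stood at 517 CPM in knockout 2, 30.5 in knockout 3 and 0 in the other 4 libraries. Amy1, salivary amylase, stood at 242 CPM in knockout 2 and 13.4 in knockout 3. Keratins of the oral lining, named after their values were seen, followed the same order: Krt13 stood at 311 and 33.9 CPM in knockout 2 and 3 and at 0.143 in knockout 1. Krt4 stood at 2.72, 343 and 39.5 CPM in knockout 1, 2 and 3, with a log2 fold change of 6.83, or 1.28 without knockout 2 and 3. The part of these transcripts in the results below was not tested. A fit without knockout 2 and 3 leaves knockout 1 alone, which held Y-linked and no Xist reads, so it has no spread between knockouts. For that fit only effect sizes are given. A list's counts are given with the share of Y-linked reads as a covariate where that moves a count by over 1.5 times. That share is 0 in every wild type library and varies only among the knockouts. Counts with it are therefore not adjusted for sex.

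Knockout and wild type epidermis differed at 51.5% of the genes tested. Of 13632 genes, 3570 (26.2%) were higher and 3445 (25.3%) lower in knockout at an adjusted p below 0.05 by edgeR's quasi-likelihood test, called here a rise or a fall. The median log2 fold change over all genes tested was 0.00. A change of at least 10-fold was found for 371 genes that rose and 121 that fell, and the lowest and highest libraries of the 2 groups did not overlap for 62.2% of genes. A count of genes called in a list is to be read against these shares. A gene with few reads in 1 group passes the filter on low counts only through the other group. Its direction is then no test. The first principal component of log2 CPM held 82.1% of the variance and separated the groups. In all, 7015 genes were called. The fit without knockout 2 and 3 leaves knockout 1 alone in its group, so no count of genes is given for it.

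**Figure D1:**
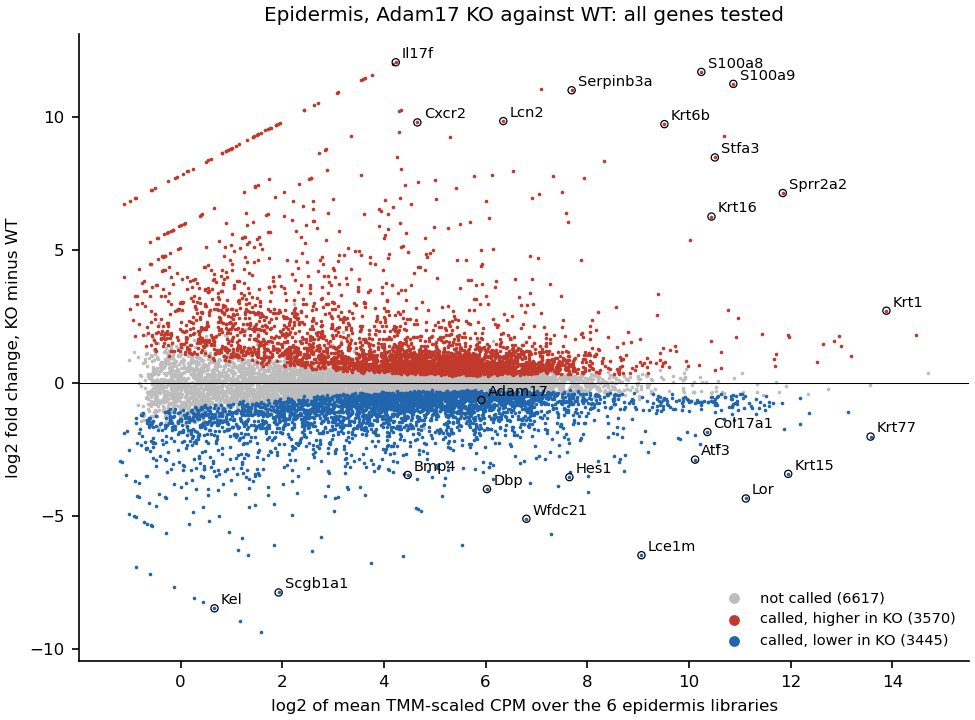
Log2 fold change (knockout minus wild type) of each tested gene against the log2 of its mean TMM-scaled CPM over the 6 epidermis libraries; red points rose (3570 genes), blue points fell (3445) and grey points were not called. S100a8, S100a9, Krt6b and Sprr2a2 are abundant genes far above 0, and Krt15, Lor and Krt77 are abundant genes below it. The diagonal rows at the top left are genes with 0 reads in wild type.

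The targeted gene was lower in each knockout library. Adam17 (ENSMUSG00000052593.15, chromosome 12, 21323509 to 21373632, minus strand, mm10) stood at 71.8, 78.2 and 71.5 CPM in wild type and at 43.9, 53.5 and 43.3 CPM in knockout 1, 2 and 3. The groups did not overlap, and the log2 fold change was -0.66 (SE 0.12, edgeR adjusted p = 0.00213). It ranged from -0.75 to -0.52 over the alternatives, and was not called when a change of more than 1.5-fold was required (adjusted p = 0.311). These are counts over the whole gene, so reads of exons outside the floxed segment, and reads of cells without recombination, are counted with the rest.

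The keratins of stressed epidermis rose far above a low base. Krt6b, a keratin of wound edges, stood at 1.2, 2.12 and 1.79 CPM in wild type and at 2160, 1708 and 520 CPM in knockout. Every knockout library was far above every wild type library, with knockout 3 the lowest of the 3. The log2 fold change of Krt6b was 9.72 (SE 0.65, edgeR adjusted p = 1.61e-05). Its partner Krt16 rose from 36.2 ± 11.2 CPM (SD, n = 3) to 2745 ± 1290, and Krt6a from 48.8 ± 6.66 to 2031 ± 857. Krt17, counted with these keratins, stood at 1789 ± 560 and 2017 ± 157 CPM and was not called. In bulk samples, more cells that use a gene and more RNA of it per cell cannot be told apart.

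The small proline-rich (Sprr) genes, whose products become part of the envelope, rose as a family. Of 15 genes, 13 passed the filter on low counts and 12 of those rose, with a median log2 fold change of 7.13 against 0.00 over all genes tested. Sprr3, which did not pass, stood at 0, 19.0 and 1.49 CPM in knockout 1, 2 and 3. It is among the 17 genes set apart in knockout 2. Sprr2d (chromosome 3, 92339140 to 92340873, plus strand) stood at 0, 0.25 and 0.0777 CPM in wild type and at 436, 248 and 134 CPM in knockout, and its log2 fold change was 11.04 (SE 0.70). Sprr2a2, the most counted member, rose from 52.3 ± 20.4 to 7302 ± 2481 CPM. The least changed riser was Sprr1a, at 117 ± 8.29 and 461 ± 101 CPM, and the member not called was Sprr4, at 1 ± 0.73 and 0.872 ± 0.295. Sprr2 genes are near-identical copies, so how the counting divided reads among them is uncertain. All 6 genes of the wound-type late cornified envelope group (Lce3) rose as well, among them Lce3f (0.0467 ± 0.0412 to 14.6 ± 6.19 CPM) and Lce3d (0.0208 ± 0.036 to 13.1 ± 6.16). The median log2 fold change of the Lce3 genes was 7.72, or 6.92 with Lce3b, at 0 reads in wild type, set to its lower bound. The Lce3 genes together summed to 0.562 to 3.34 CPM in wild type, so they passed the filter on low counts through their knockout level. Repetin (Rptn), an S100-fused envelope protein, rose from 1.42 ± 0.339 to 320 ± 48.2 CPM (log2 fold change 7.79, SE 0.22).

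The envelope genes of resting epidermis moved the other way. Loricrin (Lor, chromosome 3, 92080271 to 92083142, minus strand), its main structural protein, stood at 2445, 3404 and 6860 CPM in wild type and at 94.6, 193 and 332 CPM in knockout. The groups did not overlap, with a log2 fold change of -4.36 (SE 0.55, edgeR adjusted p = 0.000342). Of the 14 Lce1 genes of the homeostatic late cornified envelope, 10 fell and 1, Lce1g, rose (0.803, 1.62 and 2.72 CPM against 5.09, 5.73 and 10.1). Lce1m fell from 630, 924 and 1625 CPM to 2.87, 15.9 and 16.5 (log2 fold change -6.49, SE 0.66). The median over the Lce1 genes was -1.42. When the share of Y-linked reads was a covariate 6 fell, and without knockout 2 and 3 the median was -2.14. Of 16 envelope precursors and S100-fused proteins, 6 fell and 3 rose, or 7 and 5 with the replicate number as a block. Flg2, a relative of filaggrin, fell from 324 ± 74.6 to 21.5 ± 16.6 CPM and Kprp from 190 ± 40.7 to 24.5 ± 13.3. Filaggrin itself (Flg) rose from 38.7 ± 5.43 to 134 ± 60 CPM, while involucrin (Ivl), at 220 ± 55.4 and 260 ± 54.9 CPM, was not called.

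Many of these genes lie together in the epidermal differentiation complex of chromosome 3. Between S100a1 and S100a10 (chromosome 3, 90511034 to 93564643, mm10), 69 genes were tested. Of these 30 rose and 23 fell, against 26.2% and 25.3% of all genes tested. At least 10-fold changes were found for 20 that rose and 7 that fell, against 371 and 121 over all 13632 genes. The largest of them were S100a8 at 11.68 and Lce1m at -6.49 on the log2 scale, so genes of the complex moved in both directions.

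The bases just upstream of 4 of these genes are shown because the genes changed among the most and because their promoters hold a motif that was searched for. The sequences are from RefSeq (GRCm38.p6), 250 bases ending at the base before the annotated start, 5′ to 3′ on the strand of the gene. Capitals mark TGANTCA, a motif of AP-1 factors, in Sprr2d and Lor, and TTGCNNAA, a motif of C/EBP factors, in S100a9 and Lcn2.
Sprr2d: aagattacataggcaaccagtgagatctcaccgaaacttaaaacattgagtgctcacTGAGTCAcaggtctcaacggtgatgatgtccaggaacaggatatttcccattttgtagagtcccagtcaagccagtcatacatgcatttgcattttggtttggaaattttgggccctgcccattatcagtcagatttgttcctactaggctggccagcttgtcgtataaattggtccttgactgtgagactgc
Lor: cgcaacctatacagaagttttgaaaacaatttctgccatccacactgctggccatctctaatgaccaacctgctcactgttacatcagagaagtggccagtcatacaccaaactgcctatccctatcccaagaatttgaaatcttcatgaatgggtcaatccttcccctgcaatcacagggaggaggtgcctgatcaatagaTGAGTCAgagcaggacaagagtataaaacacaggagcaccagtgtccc
S100a9: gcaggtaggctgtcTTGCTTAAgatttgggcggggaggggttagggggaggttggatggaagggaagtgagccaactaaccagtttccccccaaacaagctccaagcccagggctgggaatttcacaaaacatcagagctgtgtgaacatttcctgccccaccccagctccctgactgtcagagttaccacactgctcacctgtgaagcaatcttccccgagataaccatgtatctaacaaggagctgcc
Lcn2: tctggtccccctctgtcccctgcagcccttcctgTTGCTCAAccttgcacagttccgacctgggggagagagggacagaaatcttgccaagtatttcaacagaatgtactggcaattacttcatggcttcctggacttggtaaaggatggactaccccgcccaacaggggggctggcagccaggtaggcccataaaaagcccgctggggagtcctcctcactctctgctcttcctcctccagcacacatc
These lie at chr3:92338890-92339139 (Sprr2d, plus strand), chr3:92083143-92083392 (Lor, minus), chr3:90695722-90695971 (S100a9, minus) and chr2:32387740-32387989 (Lcn2, minus). The match starts at base -193 from the start in Sprr2d, -48 in Lor, -236 in S100a9 and -216 in Lcn2. 4 motifs were searched on both strands in windows from 250 bases before to 50 after each start, for 8 lists, and none of these motifs contains another. TGANTCA was found in 9 of 14 Sprr promoters, against 7.81% of all 32841 promoters of that length, and in 0 of 6 Lce3 and 0 of 13 Lce1 promoters. TTGCNNAA was found in 8 of 16 promoters of the antimicrobial list, against 10.8% of all. The E-box CACGTG was found in 6 of 20 promoters of clock genes, against 7.15%. A motif of NF-kB was found in 7 of 21 immediate early, 4 of 17 neutrophil and 3 of 16 antimicrobial promoters, against 8.46% of all. Copies of a family share sequence, so these counts are descriptions of letters. The list that holds Lor was not searched, and Lor, which fell, and Sprr2d, which rose, both hold the AP-1 letters.

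Most of the antimicrobial genes tested rose, and S100a8 and S100a9 were among the 12 largest rises of all genes. S100a8 (chromosome 3, 90668978 to 90670035), which forms calprotectin with S100a9, stood at 0.883, 0.624 and 0.7 CPM in wild type and at 3878, 2169 and 1215 CPM in knockout. S100a9 stood at 1.45, 1.56 and 1.63 CPM against 5990, 3429 and 1817. Both were highest in knockout 1 and lowest in knockout 3, and their log2 fold changes were 11.68 (SE 0.59) and 11.23 (SE 0.57). Lcn2, which binds bacterial siderophores, rose from 0, 0.125 and 0.389 CPM to 225, 151 and 112. Of 19 genes of the list, 12 were tested, of which 9 rose and 2 fell, with a median of 5.31. In wild type 5 of the 19 had 0 reads, and such genes pass the filter on low counts only through their knockout level. Slpi, a protease inhibitor, rose from 0.553 ± 0.307 to 19.1 ± 8.14 CPM. The 2 that fell were Wfdc21 (154, 214 and 283 CPM to 3.94, 6.53 and 8.14) and the beta-defensin Defb1 (100 ± 13.4 to 42.7 ± 8.49), while the beta-defensin Defb6 rose (236 ± 52.5 to 686 ± 73.5). Without the filter on low counts 14 of the list rose. Of 9 other S100 genes tested, S100a10, S100a13 and S100a6 fell and none rose in that fit (1 with the replicate block).

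**Figure D2:**
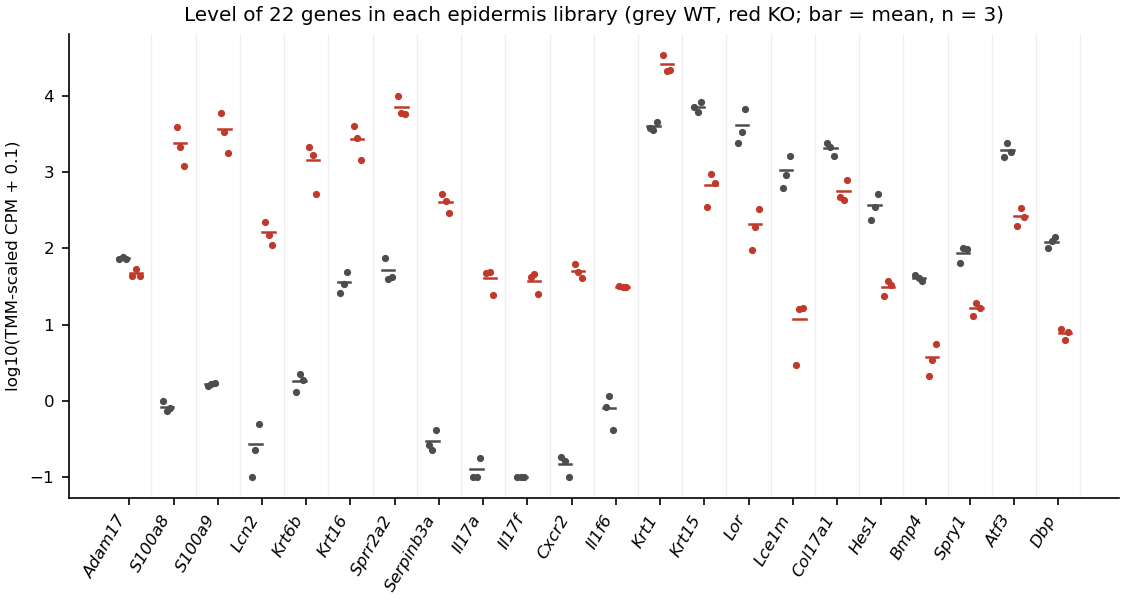
Level of 22 genes in each epidermis library, as log10 of TMM-scaled CPM plus 0.1; each point is a library (grey wild type, red knockout) and each bar the log10 of the mean of 3 plus 0.1. Adam17 is lower in knockout, S100a8 to Krt1 stand above wild type in every knockout library and Krt15 to Dbp below it.

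Cytokines of the interleukin-17 axis appeared in knockout epidermis. Il17a, its main cytokine, had 1 read in the 3 wild type libraries together and 47.6, 48.7 and 24.5 CPM in knockout 1, 2 and 3, a ratio of 1619 with an interval for counting error of 290.2 to 63977. Il17f had 0 reads in wild type and 41.6, 46.4 and 24.7 CPM in knockout, at least 505-fold higher when wild type is set to the limit of 3 counts over the group. Il22 was also at 0 reads in wild type and reached 5.02, 4.4 and 2.65 CPM, at least 54.1-fold higher. Ccl20, which draws cells bearing its receptor Ccr6, rose from 0.968 ± 0.184 to 15.5 ± 2.12 CPM. Of 12 genes of the type 17 list tested, 8 rose and 1 fell, with a median log2 fold change of 3.59. In wild type 4 of its 14 genes had 0 reads. Such genes pass the filter on low counts only through their knockout level, so their rise is no test of direction. The receptor subunits Il17rc (240 ± 30.3 and 196 ± 6.31 CPM) and Il17re (26.9 ± 2.61 and 27 ± 0.268) were not called, and Il17ra rose at a log2 fold change of 0.47.

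Regulators downstream of that receptor rose by smaller factors. Of 10 tested, 8 rose and none fell, among them Zc3h12a, an RNase that limits cytokine transcripts (68.4 ± 17.3 to 293 ± 25.6 CPM), and Steap4, a metalloreductase (13.5 ± 5.55 to 67.1 ± 7.22). Nfkbiz, a cofactor of NF-kB, rose from 92 ± 28.4 to 182 ± 17.6 CPM. When a change above 1.5-fold was required, 5 of the 8 were called.

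Interleukin-1 family members split. The IL-36 genes Il1f6 (0.698 ± 0.376 to 31.3 ± 0.349 CPM), Il1f8 (3.36 ± 1.09 to 35.3 ± 6.09) and Il1f9 (28.2 ± 6.37 to 121 ± 25.9) rose, as did Il1b (1.28 ± 0.642 to 54.8 ± 41.8). Il1f6 stood within 31 to 31.7 CPM in all 3 knockout libraries, whereas Il1b ranged from 14.5 in knockout 3 to 97.9 in knockout 2. Those that fell were Il1f10, Il18, its receptor Il18r1, and the decoy receptor Il1r2 (143 ± 2.9 to 41 ± 6.09 CPM). In all 8 of 14 rose and 4 fell.

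Chemoattractants of neutrophils rose with stefins and the receptor Cxcr2, while several other markers of these cells had few reads. Cxcr2, a receptor for such chemokines, had 2 reads in wild type and 61.7, 49.2 and 40.4 CPM in knockout, a ratio of 1023 (counting interval 282.8 to 8451). Stfa3, a stefin, rose from 8.25 ± 2.81 to 2905 ± 1402 CPM, and Cxcl1 from 1.63 ± 0.716 to 9.47 ± 1.71. Of 18 genes, 10 were tested and 9 of them rose. In wild type 10 of the 18 had 0 reads, and such genes pass the filter on low counts only through their knockout level. The count of 9 is therefore no test of direction. The median was 8.08, or 6.31 with Cxcl3, Trem1 and Csf3r, at 0 reads in wild type, at their lower bounds. Elane and Mpo, granule genes transcribed mainly in neutrophil precursors, had 0 and 4 reads over the 3 knockout libraries, Ngp had 12 and the surface marker Ly6g had 10. Retnlg had 191 reads, at 2.51, 10.9 and 0.517 CPM in knockout 1, 2 and 3, and Csf3r stood at 3.94, 12.5 and 1.55 CPM. Retnlg and Csf3r were thus highest in knockout 2, as was Cxcl5 (0.43, 15.6 and 2.52 CPM), which was not tested. Stefins are copies of each other, so their division is uncertain.

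Keratins of the basal and spinous layers divided. Krt15, a keratin of basal and follicle stem cells (chromosome 11, 100131758 to 100135928), stood at 7114, 6236 and 8381 CPM in wild type and at 346, 950 and 719 CPM in knockout. The groups did not overlap (log2 fold change -3.43, SE 0.36, edgeR adjusted p = 0.000145). Krt77 fell from 19533 ± 4071 to 4785 ± 2643 CPM and Krt5, the basal partner of Krt14, from 12236 ± 723 to 5625 ± 1107. Krt14 itself (7332 ± 1269 and 6248 ± 1288 CPM) and Krt10 (23525 ± 1134 and 29925 ± 4613) were not called. Krt1, the spinous partner of Krt10, rose from 3829, 3633 and 4588 CPM to 34861, 21699 and 21966. Counts of 5 lower and 2 higher of 10 became 3 and 3 with the Y-linked share as a covariate.

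Basement membrane and hemidesmosome genes fell. Of 12 tested, 10 fell and none rose, with a median log2 fold change of -1.18, or 6 with the Y-linked share as a covariate. Col17a1, a transmembrane collagen of the hemidesmosome, stood at 2397, 2144 and 1642 CPM in wild type and at 476, 437 and 793 CPM in knockout. Lamb3, a chain of laminin-332, fell from 299 ± 32.8 to 71.7 ± 25.4 CPM, Dst from 666 ± 192 to 160 ± 49.1 and Itgb4 from 242 ± 33.8 to 99.8 ± 23.4. Plec, which links the hemidesmosome to keratin, stood at 297 ± 70.9 and 299 ± 64.3 CPM. By contrast, 7 of 12 desmosome genes rose and none fell, led by the cadherins Dsg1b (30 ± 10.8 to 187 ± 19.7) and Dsg3 (37.9 ± 12.3 to 118 ± 14). The desmosome count was 5 and 1 without knockout 3, and 4 and 0 with the Y-linked share as a covariate. Dsc2, high in knockout 2 alone (12.8, 72.2 and 15.4 CPM against 5.34 ± 0.75), had a log2 fold change of 2.64, or 1.40 without knockout 2.

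Junction genes showed no common direction, with 6 higher and 6 lower of 16, or 4 and 3 with the Y-linked share as a covariate. The connexins Gjb2 (9.59 ± 4.6 to 137 ± 57.1 CPM), Gjb6 (2.69 ± 0.675 to 21.6 ± 9.54) and Gja1 (128 ± 11.3 to 399 ± 60.2) rose. The connexin Gjb5 fell from 281 ± 77.8 to 86.2 ± 2.05 CPM, and the tight junction genes Cgn and Cldn23 fell as well. Among transcription factors of the epidermis, 6 of 18 rose and 2 fell, or 1 in most alternatives, that with the Y-linked share as a covariate included. Ehf rose from 8.41 ± 1.13 to 228 ± 40.9 CPM and Elf3 from 2.11 ± 0.795 to 55.2 ± 34.3. Gata3 fell from 332 ± 84.2 to 116 ± 4.73 CPM. Trp63, the factor that defines stratified epithelium, stood at 358 ± 33.5 and 293 ± 40.3 CPM and was not called.

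Proteases of desquamation and their serpin inhibitors rose, 10 of 14 tested, with 2 lower and a median of 3.11. Serpinb3a had 8 reads in wild type and stood at 522, 425 and 293 CPM in knockout (log2 fold change 10.99, SE 0.37). Klk13 rose from 1.92 ± 0.702 to 261 ± 59.8 CPM and Klk6 from 5.36 ± 1.2 to 117 ± 29.4. Klk5, a trypsin-like kallikrein, fell from 332 ± 79.2 to 68.7 ± 20.8 CPM, and Spink5, which inhibits it, fell from 567 ± 105 to 369 ± 69.9. Without knockout 1, wild type 2 or wild type 3 in turn, and with the Y-linked share as a covariate, 1 gene of the list fell. Among enzymes that crosslink the envelope or process filaggrin, 6 of 11 rose and 3 fell, or 1 without knockout 1 or 2 and with the Y-linked share as a covariate. Casp14, which cleaves profilaggrin, rose from 91.7 ± 9.59 to 661 ± 114 CPM and the transglutaminase Tgm3 from 20.8 ± 7.78 to 215 ± 96.1.

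Ligands of EGFR and its family of receptors, neuregulins (Nrg) included, did not share a direction. Betacellulin (Btc) stood at 27.6, 57.4 and 53.9 CPM in wild type and at 2.36, 4.7 and 4.07 CPM in knockout (log2 fold change -3.64, SE 0.34, edgeR adjusted p = 8.19e-05). Epgn rose from 54 ± 21.7 to 230 ± 4.85 CPM, Tgfa from 19.3 ± 3.8 to 47.1 ± 8.77 and Nrg1 from 1.33 ± 0.427 to 5.47 ± 0.247. Nrg2 fell from 5.21 ± 1.88 to 2.07 ± 0.579 CPM, and 1 ligand fell with the Y-linked share as a covariate. The ligands Hbegf (63.7 ± 22.3 and 73.3 ± 24 CPM) and Areg (54.8 ± 19.9 and 57.1 ± 16.6), both known substrates of ADAM17, were not called. Egfr (76.7 ± 10.2 and 106 ± 6.99 CPM) and Erbb3 (144 ± 20 and 200 ± 17.1) rose by log2 fold changes of 0.47 each. Neither ErbB receptor was called without knockout 3. Of the ErbB receptors 1 was called without knockout 2, without wild type 1 and with the Y-linked share as a covariate.

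Feedback genes of the EGFR and MAPK pathway fell. Of 16 tested, 10 fell and 2 rose, with a median of -0.73, and 4 fell with the Y-linked share as a covariate. Spry1, an inhibitor of receptor tyrosine kinase signalling, stood at 64.2, 99.9 and 96.9 CPM in wild type and at 13, 19.4 and 16.2 CPM in knockout. Spry2 fell from 27 ± 4.66 to 7.23 ± 1.62 CPM and the ETS factor Etv5 from 10.2 ± 1.88 to 4.76 ± 1.07. Those that rose were Phlda1 (4.45 ± 1.03 to 38.8 ± 13.9 CPM) and the phosphatase Dusp4 (0.663 ± 0.191 to 4.33 ± 1.14). Dusp6, a phosphatase of ERK, stood at 25.7 ± 4.57 and 33.9 ± 7.05 CPM and was not called.

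Proteases and partners related to ADAM17 rose more often than they fell, 6 and 1 of 11. Their median log2 fold change was 0.58, or 0.48 without knockout 2 and 3. Adam10, its closest relative, stood at 35.9, 37 and 41.5 CPM in wild type and at 82.3, 97 and 87.4 CPM in knockout. Adam8 rose from 10.4 ± 4.67 to 32.4 ± 8.37 CPM and Rhbdf2, which carries ADAM17 to the cell surface, from 73.8 ± 15.1 to 111 ± 5.74. Among 20 other substrates of ADAM17, 8 rose and 5 fell, or 5 and 3 with the Y-linked share as a covariate. Cd44, a hyaluronan receptor, rose from 88.2, 97.3 and 81.5 CPM to 467, 470 and 441, while Fas fell from 11.6 ± 0.331 to 4.5 ± 0.148 and Il6ra from 157 ± 16.6 to 83.6 ± 16.2. Tnf, whose release gave the protease its name, rose from 1.58 ± 0.647 to 4.22 ± 1.65 CPM.

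In the Notch pathway the target gene Hes1 fell in every knockout library. It stood at 238, 347 and 523 CPM in wild type and at 23.8, 37.5 and 33 CPM in knockout (log2 fold change -3.55, SE 0.30). Nrarp, another target, fell from 184 ± 41.2 to 87.6 ± 11.4 CPM, and the ligands Dll1 and Jag2 fell. The ligand Jag1, the receptors Notch2 and Notch3, the DNA-binding partner Rbpj and its coactivator Maml1 rose. Thus 5 of 10 rose and 4 fell, or 3 and 4 with the Y-linked share as a covariate. The median log2 fold change was 0.47, or 0.21 without knockout 2 and 3.

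**Figure D3:**
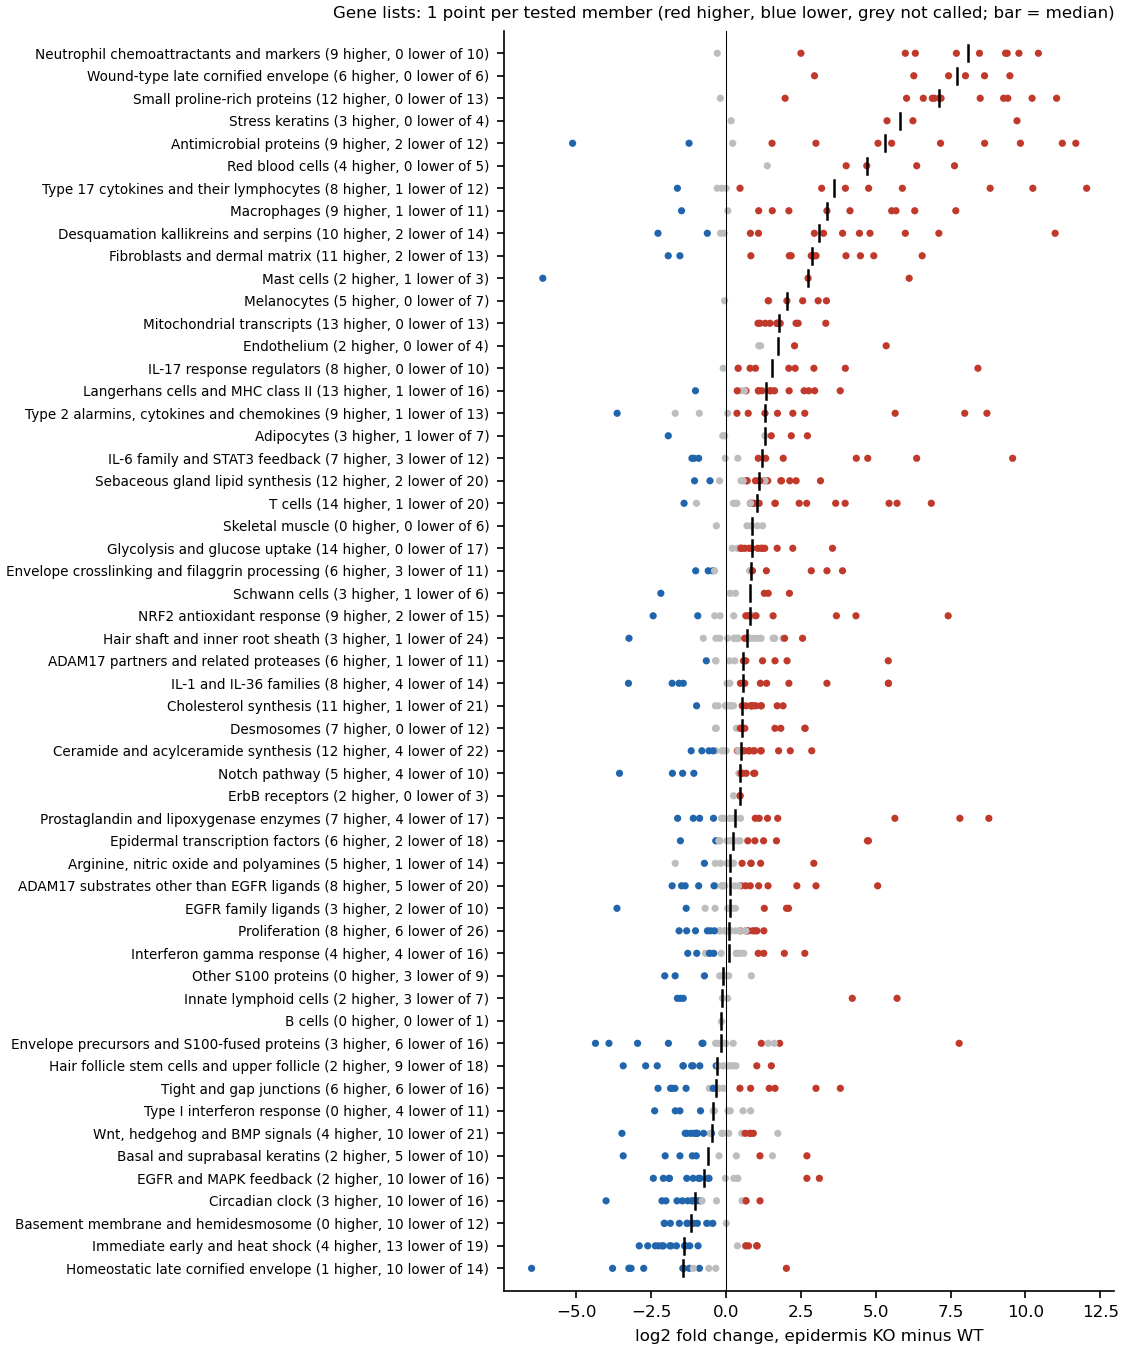
Log2 fold change (knockout minus wild type) of each tested member of the gene lists, ordered by the median of the list (black bar); red members rose, blue members fell and grey members were not called. The Lce3, Sprr, stress keratin and neutrophil lists lie far to the right, and the Lce1, immediate early, basement membrane and clock lists to the left. Rare genes at 0 in 1 group are drawn at their fitted value.

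Of 18 hair follicle stem cell genes 9 fell and 2 rose. With the Y-linked share as a covariate 4 fell and 1 rose, and 1 rose without knockout 1, knockout 3, wild type 2 or wild type 3. Cd34, a marker of the bulge, fell from 37.6 ± 11.5 to 5.86 ± 1.57 CPM and Ccn2 from 85.3 ± 9.65 to 17.4 ± 2.72. Sox9, the gene whose regulatory sequence drives the Cre, stood at 16.7 ± 1.32 and 17.6 ± 3.9 CPM, and Lgr5 at 3.84 ± 0.417 and 3.6 ± 1.26. Plet1 rose from 57.5 ± 5.45 to 165 ± 53.1 CPM. Hair shaft and inner root sheath genes varied widely within each group. Krt71, an inner root sheath keratin that was not called, stood at 1.45, 67 and 66.2 CPM in wild type and at 20.9, 134 and 262 in knockout. Of 24, 3 rose and 1 fell, with 7 higher without knockout 1 and 10 with the replicate block. In 1 fit of all 12 libraries 1 of 27 rose, and 1 of 24 rose when more than 1.5-fold was required. The median log2 fold change of the list was 0.71, or 0.13 without knockout 3 and -0.82 without knockout 2 and 3. Among Wnt, hedgehog and BMP genes 10 of 21 fell and 4 rose, or 7 without knockout 1. Bmp4 stood at 44.1, 41 and 36.8 CPM in wild type and at 2.01, 3.38 and 5.49 CPM in knockout. With the Y-linked share as a covariate 6 of the 21 fell. The median log2 fold change of the 21 was -0.48, or -0.83 without knockout 2 and 3.

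Lipid genes rose by modest factors. Sebaceous lipid synthesis had 12 of 20 higher and 2 lower (1 lower with the Y-linked share as a covariate, without knockout 2 or without wild type 3). The risers included Elovl3 (11.1 ± 3.99 to 98.8 ± 25.7 CPM) and Scd1 (469 ± 35.8 to 1232 ± 339). Cholesterol synthesis had 11 of 21 higher and 1 lower, or 3 lower without wild type 1. Hsd17b7 rose from 21.7 ± 1.82 to 71.3 ± 5.9 CPM and the isomerase Idi1 from 106 ± 19.4 to 238 ± 22.8, while Fdps, which makes farnesyl diphosphate, fell from 657 ± 118 to 333 ± 35.7. Ceramide synthesis had 12 of 22 higher and 4 lower, or 7 and 2 with the Y-linked share as a covariate. Degs1, the desaturase that makes ceramide, rose from 86 ± 3.64 to 291 ± 54.6 CPM and Sptlc3 fell from 179 ± 7.25 to 80.1 ± 2.62.

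Glycolysis genes rose, 14 of 17 with none lower and a median of 0.86. Hexokinase 2 (Hk2) stood at 7.47, 7.62 and 6.14 CPM in wild type and at 89.9, 93 and 67.8 CPM in knockout (log2 fold change 3.56, SE 0.17). With the Y-linked share as a covariate 9 rose. Targets of the antioxidant factor NRF2 rose, 9 of 15 with 2 lower, led by the cystine transporter Slc7a11 (0.219 ± 0.243 to 42.6 ± 14.2 CPM). Haem oxygenase (Hmox1) fell from 65 ± 26.3 to 12.1 ± 2.01 CPM. In that list Gsta4 stood at 23.1, 107 and 15.5 CPM in knockout against 2.38 ± 0.254, with a log2 fold change of 4.34, or 3.02 without knockout 2. Polyamine and arginine genes had 5 of 14 higher and 1 lower (3 lower without knockout 2), with Smox, which oxidises spermine, going from 26.2 ± 1.94 to 200 ± 12.6 CPM. Prostaglandin and lipoxygenase genes had 7 of 17 higher and 4 lower. Pla2g4e, a phospholipase, rose from 0.649 ± 0.473 to 139 ± 34.3 CPM and Ptgs1 fell from 322 ± 9.53 to 151 ± 9.58.

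Immediate early genes fell, and this list had the second lowest median. Of 19 immediate early and heat shock genes, 13 fell and 4 rose, with a median of -1.38. Atf3 stood at 1598, 2414 and 1872 CPM in wild type and at 194, 340 and 256 CPM in knockout (log2 fold change -2.90, SE 0.25). Jun fell from 1469 ± 259 to 335 ± 88.4 CPM, Egr1 from 1433 ± 241 to 337 ± 96.6 and Fos from 2389 ± 263 to 916 ± 208. Those that rose included the heat shock genes Hspa1a (148 ± 10.1 to 305 ± 43.8 CPM) and Hsph1, while the small heat shock gene Hspb1 fell. The labels give no handling time for any sample.

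Of 16 clock genes 10 fell and 3 rose, with a median of -1.03. With the Y-linked share as a covariate 6 fell and 3 rose, and without knockout 2 and 3 the median was -1.15. Dbp, an output gene of the clock, stood at 101, 125 and 143 CPM in wild type and at 8.74, 6.24 and 7.95 CPM in knockout (log2 fold change -4.00, SE 0.19). Nr1d1 fell from 193 ± 4.89 to 48.1 ± 6.65 CPM and Per1 from 229 ± 49.1 to 108 ± 23.9. Arntl and Clock, which act in the opposite limb of the loop, rose, as did Nfil3. The labels give no hour of sampling.

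Proliferation genes gave no clear direction, with 8 of 26 higher and 6 lower and a median of 0.10. Mki67 rose from 31 ± 7.03 to 60.8 ± 19.2 CPM and Top2a from 38 ± 2.37 to 70.4 ± 18, while the replication gene Mcm6 fell from 70.7 ± 6.45 to 34.9 ± 3.5 and the G1 cyclin Ccnd1 from 64.5 ± 12.2 to 26 ± 6.15. With the Y-linked share as a covariate the proliferation count was 4 higher and 4 lower. The number that rose was 4 without knockout 3 or without wild type 3 and 5 without wild type 2. All 13 mitochondrial protein genes rose, with a median of 1.76, or 8 with the Y-linked share as a covariate. The gene mt-Co1 stood at 11488, 12353 and 6885 CPM in wild type and at 44548, 37825 and 22850 in knockout. Leaving mitochondrial genes out of the library totals gave 7001 calls.

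Markers of immune cells were mostly higher. Macrophage markers summed to 22.7 to 26.9 CPM in wild type and 61.4 to 153.7 in knockout, and 9 of 11 tested rose while Mertk fell (8 and 0 with the Y-linked share as a covariate). In wild type 4 of the 15 macrophage markers had 0 reads, and such genes pass the filter on low counts only through their knockout level. Ccr2 had 2 reads in wild type and stood at 11.4, 15.9 and 8.01 CPM in knockout, and C1qa rose from 0.74 ± 0.437 to 7.52 ± 2.43 CPM, while Adgre1 was not called (1.8 ± 0.55 and 1.89 ± 0.688). T cell markers had 14 of 20 higher and 1 lower. Icos, a costimulatory receptor, stood at 0.482, 0.187 and 0.155 CPM in wild type and at 27.7, 44.3 and 24 CPM in knockout. Trdc, a constant segment of the gamma-delta receptor, rose from 18.9 ± 4.06 to 41 ± 13.8 CPM, and Trbc2 fell from 79.7 ± 15.3 to 30.2 ± 2.4. Langerhans cell and class II genes had 13 of 16 higher and 1 lower, and 7 and 1 with the Y-linked share as a covariate. H2-Aa stood at 74.8, 78.2 and 71.8 CPM against 342, 204 and 147, whereas Cd207, the defining lectin of Langerhans cells, was not called (15.4 ± 1.9 and 21.8 ± 5.93). Innate lymphoid genes had 2 of 7 higher, Il2ra and Il7r, and 3 lower. Mast cell proteases were near 0, with Cma1 at 10 reads, Cpa3 at 4 and Tpsab1 at 0 over the 3 knockout libraries. Of 3 mast cell genes tested, Hdc and Kit rose and Mrgprb2, a receptor of connective tissue mast cells, fell from 4.74, 7.12 and 9.25 CPM to 0, 0.147 and 0.129. Of 8 B cell genes 1, Ighm, was tested and not called (1 of 2 rose without knockout 2 or without wild type 3), and Ms4a1 had 0 reads.

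Genes of other cytokine axes changed in both directions. In the type 2 list 13 of 24 genes were tested, of which 9 rose and 1 fell (2 fell without knockout 2). In wild type 9 of the 24 had 0 reads, and such genes pass the filter on low counts only through their knockout level. Ccl22 rose from 3.42 ± 0.485 to 16.2 ± 4.35 CPM and the decoy receptor Il13ra2 from 0.802 ± 0.364 to 4.93 ± 0.699, while Il31ra fell from 4.72 ± 2.61 to 0.375 ± 0.122. The cytokines Il4 and Il5 had 1 and 4 reads over the 3 knockout libraries and Il13 had 38. In the IL-6 family list 7 of 12 rose and 3 fell. Stat3 rose from 112 ± 14.7 to 420 ± 37 CPM and Bcl3 from 2.44 ± 0.805 to 50 ± 12.6, whereas the feedback inhibitor Socs3 fell from 305 ± 18.9 to 139 ± 21.2. Of 11 type I interferon genes 4 fell, Usp18, Isg15, Irf7 and Ifi27l2a, and none rose, but 3 rose without knockout 1, and with the Y-linked share as a covariate 2 rose and 2 fell. Usp18 fell from 23.9 ± 2.76 to 4.58 ± 1.59 CPM. Interferon gamma genes had 4 of 16 higher and 4 lower, or 2 lower without knockout 1 and with the Y-linked share as a covariate. Ciita was higher (0.966 ± 0.0987 to 6.05 ± 2.16 CPM) and Psmb9 lower (60.5 ± 5.89 to 30.8 ± 4.05).

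Markers of other cells of skin moved with genotype beside all of these lists. Red cell markers summed to 78.3 to 124.7 CPM in wild type and 984.7, 1513 and 230.7 CPM in knockout 1, 2 and 3, with 4 of 5 tested higher and Hbb-bs going from 4.98, 6.99 and 1.55 CPM to 407, 640 and 91.5. Endothelial markers summed to 2.81 to 3.93 CPM against 15.2 to 32.5, with 2 of 4 higher, or 4 without knockout 1. Their median log2 fold change was 1.72, or 1.10 without knockout 2 and 3. Fibroblast markers summed to 106 to 156 CPM against 165 to 262, with 11 of 13 higher and 2, Sparc and Col6a1, lower. Their median log2 fold change was 2.88, or 2.11 without knockout 2 and 3. Col3a1 stood at 0.964, 1.81 and 0.466 CPM against 27.9, 36.2 and 12. Adipocyte markers had 3 of 7 higher and 1 lower, and Schwann cell markers 3 of 6 higher and 1 lower (1 higher without knockout 3). Their medians were 1.30 and 0.80, or -0.0027 and 0.43 without knockout 2 and 3. The adipocyte gene Adipoq had 7 reads over the 3 knockout libraries. Of 6 skeletal muscle markers tested none was called in that fit, and 1 rose without knockout 3. Melanocyte markers summed to 24.9 to 41.2 CPM in wild type and to 47.8, 193.4 and 204.8 in knockout, with 5 of 7 higher. Their median log2 fold change was 2.04, or 0.57 without knockout 2 and 3. Pmel, for example, stood at 5.54, 6.3 and 5.44 CPM against 9.1, 45.6 and 47.7. The part of these cells in the other results was not tested.

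**Figure D4:**
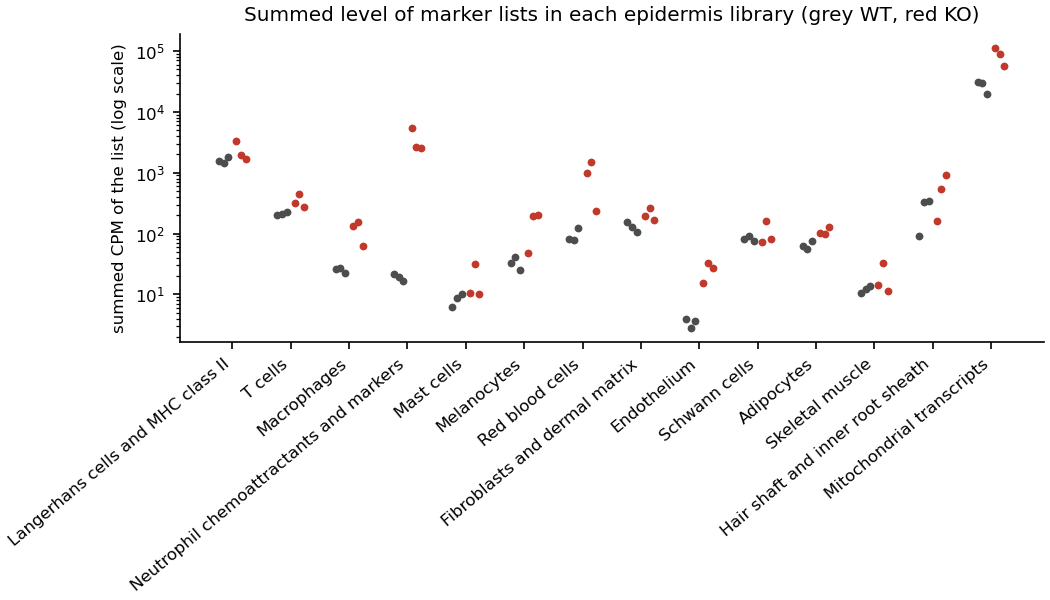
Summed TMM-scaled CPM of marker lists in each epidermis library on a log axis (grey wild type, red knockout, 1 point per library, replicate order from left to right). Red cell, endothelial, macrophage and neutrophil sums are above wild type in every knockout library, while muscle and hair shaft sums overlap.

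Among genes of any function, the largest rises and falls by fitted fold change included genes outside these lists. Of the 12 largest rises, Il17f, Tmprss11b, Fabp7, Ankk1, Pdcd1, Blk and the Y-linked Eif2s3y and Ddx3y had 0 reads in wild type, and the others were S100a8, S100a9, Sprr2d and Serpinb3a. Fabp7, a fatty acid binding protein, reached 33.5, 20.5 and 18.3 CPM, at least 326-fold higher. Tmprss11b, a serine protease, reached 26.6, 68.5 and 13.4 CPM, at least 478-fold higher, and Pdcd1, the checkpoint receptor of T cells, 15.9, 25.3 and 10.4 CPM, at least 230-fold higher. Eif2s3y and Ddx3y follow the Y-linked reads described above. Of the 12 largest falls, Hamp2, Kel, Cys1 and Gkn1 had 0 reads in knockout, and Scgb1a1 had 316 reads in wild type and 1 in knockout. Hamp2, a hepcidin, stood at 6.5, 3.5 and 7.93 CPM in wild type, at least 84.0-fold lower in knockout. Rec8, a meiotic cohesin, fell from 33.4, 37.4 and 52.9 CPM to 0, 0.954 and 0.388. Ifitm6 fell from 91.1 ± 22.3 to 1.33 ± 1.01 CPM and Ch25h, which makes 25-hydroxycholesterol, from 13.3 ± 7.25 to 0.227 ± 0.158. Of the 10 most abundant genes of wild type epidermis, Krt77, Krt5, Krt15, Dmkn and Sbsn fell, mt-Co1 and the mitochondrial pseudogene Gm28661 rose, and Krt10, Krt14 and Eef1a1 were not called.

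The response of epidermis was then set against that of whole skin in 1 fit of all 12 libraries. The difference of the 2 fold changes was called for 2539 of 15394 genes (16.5%), with the epidermal change above that of skin for 1560 and below it for 979. Type 17 and clock lists had 0 genes called of 13 and 16, and the Sprr list 1 of 14. A difference that was not called does not show that the responses were alike. Dbp, for example, had log2 fold changes of -4.02 in epidermis and -3.46 in skin, and the edgeR adjusted p of its difference was 0.461.

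Proliferation and immediate early genes had the most members called with a lower change in epidermis than in skin, while hair shaft genes had a lower median difference (-2.37) with 1 of 27 called. In proliferation 22 of 26 genes were called with a lower change in epidermis, with a median log2 fold change of 0.09 in epidermis and 1.71 in skin. In the immediate early list 13 of 19 were called lower, with medians of -1.40 and 0.53. Junb stood at 110.5 ± 10.2 and 264.1 ± 11.1 CPM in wild type and knockout skin, and at 1726 ± 233 and 465.7 ± 76.7 CPM in epidermis on the same scale. The level of Junb in wild type epidermis was thus above that of wild type skin, and the knockout groups lay closer together. Fosb behaved alike, at 3.81 ± 0.507 and 27.9 ± 9.81 CPM in skin and 1157 ± 291 and 239.5 ± 99.8 in epidermis.

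Toward epidermis, mitochondrial genes and the marker lists of other cells differed most. All 13 mitochondrial genes were called, with medians of 1.75 in epidermis and -0.64 in skin. So were 9 of 13 macrophage, 16 of 18 fibroblast, 11 of 15 adipocyte, 10 of 14 endothelial and 5 of 6 red cell genes. Skeletal muscle had the largest median difference (5.39, 9 of 17 called), with medians of 0.88 in epidermis and -4.46 in skin. Its markers summed to 14249 to 91991 CPM over the wild type skin libraries. Whole skin holds the cells of these marker lists in number. The knockout skin libraries were lower than wild type in the median of the fibroblast (-1.39), adipocyte (-2.83) and endothelial (-1.66) lists. Cd36, a fatty acid receptor, stood at 231.6 ± 50.8 and 152.9 ± 10.3 CPM in skin and at 1.05 ± 0.161 and 27.8 ± 10.6 in epidermis. The level of Cd36 in wild type epidermis was thus far below that of wild type skin.

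**Figure D5:**
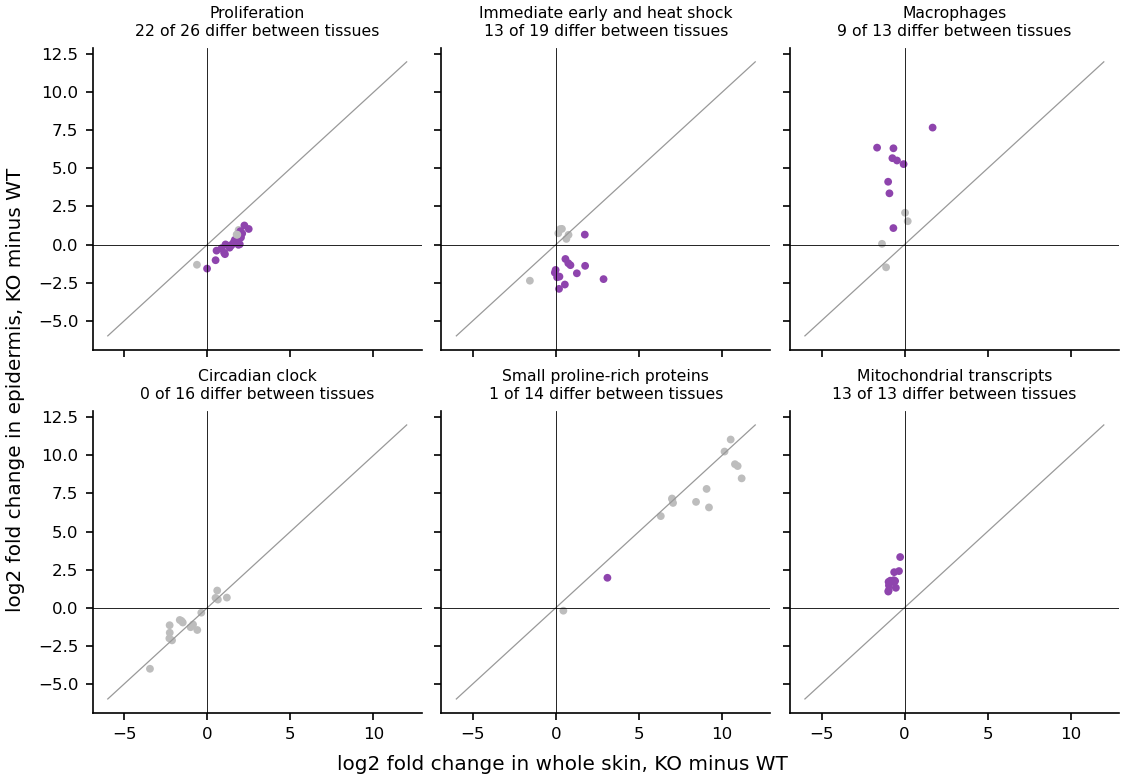
Log2 fold change in epidermis (vertical) against that in whole skin (horizontal), both from the fit of 12 libraries, for the tested genes of 6 lists; purple points differ between the tissues at an adjusted p below 0.05 and grey points were not called, and the grey line marks equal change. Proliferation and immediate early genes lie below the line, mitochondrial and most macrophage genes above it, and clock genes near it.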

How the data were processed

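Poly(A) RNA of 12 mouse skin and epidermis samples was made into stranded libraries, per the labels' protocols. Per the submitters' processing notes, bcl2fastq 2.17, STAR 2.5.1 and RSEM were used, with the mm10 build; no source used here names the annotation release or strand setting. The authors deposited, per gene, an expected count, which RSEM estimates by dividing ambiguous reads, and a TPM. TPM was not tested. Gene symbols came from GENCODE M21 (47224 of 47643 identifiers matched without their version). The 419 without a symbol held at most 0.0612% of counts.

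Expected counts were rounded to whole numbers. Genes were kept by filterByExpr (minimum count 10), scaled by TMM, and tested with edgeR 4.0.16 (quasi-likelihood, R 4.3.3) on the 6 epidermis libraries, with Benjamini-Hochberg adjustment over all genes at 0.05. CPM values are TMM-scaled, and SE is the log2 fold change divided by the root of its F statistic. The difference between tissues is an interaction term in a fit of 12 libraries. A gene at 0 reads in a group was set to 3 counts over that group for a lower bound; ratios with 1 to 3 reads carry 95% intervals for counting error only. Scripts were tested on simulated data. Alternatives were DESeq2 1.42.0, limma-voom (limma 3.58.1), RLE scaling, no filter, 1 fit of 12 libraries, a replicate block, a 1.5-fold threshold, the Y-linked share as a covariate and leaving out each library; leaving out mitochondrial genes, and knockout 2 and 3 together, were added after seeing the data.

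The comparison and gene lists were chosen with earlier results of these data known. Named were Adam17, the 12 largest rises and falls (mean of at least 1 CPM, groups not overlapping), up to 5 members of each list by adjusted p (with no call, the 2 most abundant), 5 genes each way for the difference between tissues, and the 10 most abundant genes. Other list members were named after their values were seen. Some items are not reported here.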

Additional observations from a re-analysis of the deposited data

Results flagged for a closer look

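For 10 genes the genotype effect differed between epidermis and whole skin with the smallest adjusted p in each direction, by the edgeR interaction term. Differences are epidermis minus skin on the log2 scale. The change was higher in epidermis for Cd36, a fatty acid receptor (5.32, SE 0.39), Eepd1 (4.25, SE 0.36), Fgl2 (6.85, SE 0.60), Stab1, a scavenger receptor (6.52, SE 0.56), and Zcchc24 (4.84, SE 0.42). Stab1 stood at 18.8 ± 1.61 and 24.8 ± 5.10 CPM in wild type and knockout skin and at 0.141 ± 0.187 and 17.3 ± 3.82 in epidermis (SD, n = 3). The change was lower in epidermis for Junb (-3.15, SE 0.21), Myc (-2.23, SE 0.18), Ass1, an enzyme of arginine synthesis (-2.21, SE 0.18), Pglyrp4, a peptidoglycan recognition protein (-2.98, SE 0.26), and Fosb (-5.14, SE 0.48). Ass1 stood at 10.9 ± 1.39 and 59.6 ± 1.70 CPM in skin and at 27.7 ± 3.84 and 32.9 ± 0.697 in epidermis. Myc stood at 42.4 ± 1.18 and 77.6 ± 4.54 CPM in skin and at 180.3 ± 33.1 and 70.4 ± 3.75 in epidermis.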

How the results depend on the processing

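The count of 7015 genes in epidermis stayed within 1.5 times under DESeq2, limma-voom, RLE scaling, no filter, 1 fit of 12 libraries and without mitochondrial genes (6950 to 7406), and was 5854 to 6573 with 1 library left out. Requiring more than 1.5-fold gave 3128 (1632 higher, 1496 lower), with Adam17 at -0.66 and no longer called (edgeR adjusted p = 0.311). The Y-linked share as a covariate gave 4540 (1982 lower), and leaving out knockout 2 and 3 gave 3861 (1999 higher, 1862 lower); the cause was not tested. Replicate numbers did not pair the samples (correlations of deviations 0.0881, 0.195 and -0.0946), and the replicate block gave 6766 calls. The 2539 differences between tissues ranged from 1392 to 3939 with 1 library left out (905 to 2453 higher, 484 to 1486 lower). That count was 3939 without wild type skin 1, 1436 without wild type skin 3, 1392 without knockout skin 2, 1582 without wild type epidermis 3 and 1413 without knockout epidermis 2. Counts within gene lists moved by over 1.5 times for 25 lists when more than 1.5-fold was required, 25 with the Y-linked share, and 2 to 9 with 1 library left out. No named gene reversed in any alternative fitted. Besides Adam17, 32 named genes were no longer called when more than 1.5-fold was required. With the Y-linked share as a covariate, 25 named genes were no longer called. Genes near 3 counts are limited by depth.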
